A study of Mus musculus with 22 samples.

Results

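The genes described here encode the enzymes that attach glutathione, glucuronic acid or sulfate to small molecules. They were chosen by the gene name printed in the scanner files, taking names that begin with Gsta, Gstm, Gsto, Gstp, Gstt, Gstk or Gstz, with Mgst, Ugt1 or Ugt2, or with Sult and a digit. The choice gave 44 genes, read by 59 probes, of 27670 gene names on the array. They comprise 19 soluble glutathione transferases (Gst), 3 membrane-bound ones (Mgst), 11 glucuronosyltransferases (Ugt) and 11 sulfotransferases (Sult).

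The series profiled whole intestinal tissue of male C57BL/6 mice kept on chow, with 1 one-colour Agilent array of total RNA for each of 22 samples. Flox control mice, whose labels name no Cre, were set against SIRT1 iKO mice, in which the deacetylase SIRT1 is knocked out. The ileum was taken at 6 to 8 weeks (young; 4 flox, 4 iKO) and at 24 months (aged; 3 flox, 4 iKO), and the colon at 24 months only (3 flox, 4 iKO). The labels do not spell out the letter i of iKO, the driver of the deletion or the part of Sirt1 that is removed, nor whether an ileum and a colon came from the same mouse. In whole tissue, fewer cells of a type and less RNA per cell cannot be told apart.

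Glutathione transferases join the thiol of glutathione to electrophiles, among them aldehydes from lipid peroxidation. Glucuronosyltransferases of the endoplasmic reticulum transfer glucuronic acid from UDP-glucuronate to bilirubin, steroids, bile acids and drugs, and cytosolic sulfotransferases transfer sulfate from the donor PAPS to phenols and steroids. The products are water-soluble and leave the cell through efflux pumps, and in the gut these enzymes meet dietary compounds and drugs on first entry. The genes are known targets of the regulators NRF2, AHR and the xenobiotic nuclear receptors.

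Several members are near-identical copies, which limits how far their probes separate them. The probes of Gsta1 and Gsta2 are shown because both list the RefSeq accessions of both genes and share the 20-base run in capitals, so their signals cannot be assigned to one gene. The probe of Ugt2b38 also lists the accessions of Ugt2b37 and Ugt2b5, while the probe of Ugt2b37 matches a different stretch. The Gsta2 probe lies at chr9:78408171-78408230 on the minus strand of the build mm7, the Ugt2b38 probe at chr5:87358365-87358424 on the minus strand, and the Ugt2b37 probe at chr5:87177762-87179054 on the minus strand, a span with a gap inside it. The files used here give no coordinate for the Gsta1 probe.
Gsta1 probe: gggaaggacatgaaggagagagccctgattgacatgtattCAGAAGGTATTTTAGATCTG
Gsta2 probe: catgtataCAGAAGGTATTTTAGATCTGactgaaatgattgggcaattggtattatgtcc
Ugt2b37 probe: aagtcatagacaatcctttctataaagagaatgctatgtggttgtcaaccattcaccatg
Ugt2b38 probe: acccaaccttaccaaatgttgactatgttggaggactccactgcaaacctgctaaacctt

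The promoters of the same genes are shown because the genotype differences of these copies are described together. Each line holds the 120 bases before the gene's start in the RefSeq annotation of GRCm38.p6, written in the direction of transcription. Capitals mark the longest run shared by both Gsta promoters, 28 bases, and the longest run shared by all 3 Ugt2b promoters, 62 bases. The stretches are chr9:78230549-78230668 (plus strand) for Gsta1, chr9:78347146-78347265 (minus strand) for Gsta2, chr5:87140341-87140460 (minus strand) for Ugt2b5, chr5:87254789-87254908 (minus strand) for Ugt2b37 and chr5:87424204-87424323 (minus strand) for Ugt2b38.
Gsta1 promoter: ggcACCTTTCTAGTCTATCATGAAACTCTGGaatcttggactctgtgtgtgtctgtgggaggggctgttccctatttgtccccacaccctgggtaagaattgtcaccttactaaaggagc
Gsta2 promoter: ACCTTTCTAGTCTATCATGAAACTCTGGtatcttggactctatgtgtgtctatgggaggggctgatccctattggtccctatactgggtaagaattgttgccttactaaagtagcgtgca
Ugt2b5 promoter: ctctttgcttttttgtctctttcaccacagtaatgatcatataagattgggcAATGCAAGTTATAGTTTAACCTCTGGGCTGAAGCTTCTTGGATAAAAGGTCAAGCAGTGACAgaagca
Ugt2b37 promoter: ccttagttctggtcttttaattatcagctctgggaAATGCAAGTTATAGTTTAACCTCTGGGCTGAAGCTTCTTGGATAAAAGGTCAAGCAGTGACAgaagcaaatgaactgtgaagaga
Ugt2b38 promoter: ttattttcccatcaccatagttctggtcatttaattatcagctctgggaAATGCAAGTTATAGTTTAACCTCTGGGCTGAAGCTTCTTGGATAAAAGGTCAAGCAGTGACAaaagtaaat

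The shared Ugt2b run holds AGGTCA, the half-site of nuclear receptors. Searched on both strands of the 250 bases before the start, AGGTCA occurred in 14.02% of all 32851 promoter windows and in 8 of the 39 members with an entry (20.5%), among them Ugt2b5, Ugt2b35, Ugt2b37, Ugt2b38 and Sult1e1. Ugt2b5, Ugt2b37 and Ugt2b38 carry it in the same shared run, so they are not separate occurrences. For each motif members were counted by gene and the background by window. The core of the NRF2 element, TGACNNNGC, occurred in 10.16% of all windows and in 4 of 39 members (10.3%), namely Gsta3, Gstm5, Gstm7 and Mgst1. The core of the AHR element, GCGTG, occurred in 28.16% of all windows and in 8 of 39 members (20.5%), Gsta2 among them. The reverse complement of AGGTCA begins with TGAC, so matches to these motifs can overlap.

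Levels are given as log2 of the processed signal minus the array's 75th percentile, so that 0 is the 75th percentile and each unit is a doubling, and levels of different probes are not compared. Of the 44 members, 34 were well above background on every array, 7 on some and 3 (Sult3a1, Ugt1a9 and Ugt2b1) on none, and none was saturated on any array. A gene was tested where all arrays of 1 or more groups read it well above background, which kept 39 members in the comparisons of 2 groups and 40 in the fit of all arrays. Differences were tested with limma over all genes and called at a Benjamini-Hochberg adjusted p under 0.05. Between 49.8% and 61.5% of spots were above background on ileum arrays and between 70.5% and 79.7% on colon arrays. Sirt1 itself, read by a probe of unknown position relative to the deletion, averaged 0.92 ± 0.24 (SD, n = 4) in young flox and 0.70 ± 0.04 (n = 4) in young iKO, 0.82 ± 0.25 (n = 3) and 0.32 ± 0.04 (n = 4) in aged ileum, and 0.78 ± 0.02 (n = 3) and 0.50 ± 0.15 (n = 4) in aged colon. Its difference, iKO minus flox, missed the threshold in each pair of groups (adjusted p = 0.999, 0.177 and 0.623), and passed it averaged over the 3 pairs (-0.33 ± 0.07 (SE), adjusted p = 0.0171).

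Aged ileum flox array 1 and aged ileum iKO array 2 carried markers of the large bowel. Car1, a carbonic anhydrase of colon epithelium, read 8.18 and 7.79 on them, against -3.00 to -2.14 on the other aged ileum arrays and 8.17 to 8.74 on the colon arrays. The summed linear level of 7 colon markers reached 402 and 290 there, against group medians of 9.89 to 20.0 in ileum and a range of 488 to 766 in colon, although Hoxb13, Hoxd10 and Hoxd11 were above background on no aged ileum array. The ileal bile acid binder Fabp6 stayed at 3.20 to 3.76 on all aged ileum arrays, against -4.89 to -2.55 in colon. Calls and key differences that rest on these arrays are given with and without both of them, an alternative chosen after seeing the data. Car1 also read 2.63 on young flox array 2 and 1.26 on young iKO array 2, against -2.99 to -2.39 on the other young arrays. Aqp8, another colon marker, was not well above background on either, and these 2 young arrays were left out only 1 at a time. On each slide, genotype in young ileum and colon and age in ileum followed the position on the slide, and tissue followed the slide itself, so these cannot be told apart.

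The first question is what loss of SIRT1 did to these genes. Sult1c2, a sulfotransferase of small phenols, was the only member called within a pair of groups: it fell by 1.78 on the log2 scale in aged iKO ileum. In the 3 pairs of groups the means of the 4 alpha-class glutathione transferases were higher and those of the glucuronosyltransferases Ugt2b5, Ugt2b37 and Ugt2b38 lower in iKO, each short of the threshold. Averaged over the 3 pairs, 8 members passed it: Gsta1, Gsta2 and Gsta4 rose, and Sult1c2, Ugt2b5, Ugt2b37, Ugt2b38 and Gstt1 fell.

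Sult1c2 read 0.47, 0.95, 1.18 and 0.52 in young flox ileum and -0.09, 0.13, -0.49 and -0.50 in young iKO ileum. In aged ileum it read 2.67, 1.83 and 1.82 in flox and -0.28, 0.95, 0.24 and 0.40 in iKO. In aged colon it read 4.51, 4.52 and 5.05 in flox and 2.92, 3.43, 3.80 and 4.33 in iKO. Every iKO array lay below every flox array of its pair, and the highest flox array in aged ileum and the highest iKO array there are the arrays with large bowel markers. The difference was -1.02 ± 0.27 in young ileum (adjusted p = 0.600), -1.78 ± 0.29 in aged ileum (adjusted p = 0.0291, 3.43-fold lower) and -1.08 ± 0.33 in colon (adjusted p = 0.488). Without both arrays with large bowel markers the aged ileum difference was -1.70 ± 0.27 (adjusted p = 0.0283). The call was lost when each slide had its own term (-1.45, adjusted p = 0.463), with a position term in a fit of the aged ileum arrays alone (-1.87, adjusted p = 0.297), with no filter on dim probes (adjusted p = 0.0661) and in a fit of only the 2 groups compared (adjusted p = 0.137). It was also lost without any 1 of the aged flox arrays 1, 3 and 4 (-1.49 with adjusted p = 0.0658 without flox 1, then 0.0524 and 0.0710) and without aged iKO array 1, 3 or 4 (0.0618, 0.0934 and 0.0835).

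Sult1e1, the estrogen sulfotransferase, was not well above background on any young ileum array, so no genotype difference is given there. In aged ileum it read -1.66, -2.23 and -2.16 in flox and -3.60, -3.68, -2.95 and -1.88 in iKO, and in colon -1.40, -1.89 and -2.78 in flox and -2.74, -3.64, -1.08 and -4.40 in iKO. The groups overlapped in both tissues, with 3 of 4 aged ileum iKO arrays below every flox array and iKO array 4 within the flox range. The differences, -1.01 ± 0.50 in aged ileum (adjusted p = 0.445; -0.62 ± 0.60 without both arrays with large bowel markers) and -0.94 ± 0.77 in colon (adjusted p = 0.911), missed the threshold. Sult1a1, a phenol sulfotransferase, read 5.40, 6.10 and 5.70 in flox colon and 4.07, 4.40, 4.53 and 4.95 in iKO colon, without overlap, and its difference of -1.25 ± 0.24 missed the threshold (adjusted p = 0.213). In aged ileum Sult1a1 read 4.26, 0.53 and 1.24 in flox and -0.36, 2.68, 0.07 and 0.06 in iKO. Its highest value in either group was the array with large bowel markers, and the difference was -1.40 ± 0.83 (adjusted p = 0.521) with and -0.96 ± 0.42 (adjusted p = 0.431) without both.

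**Figure D1:**
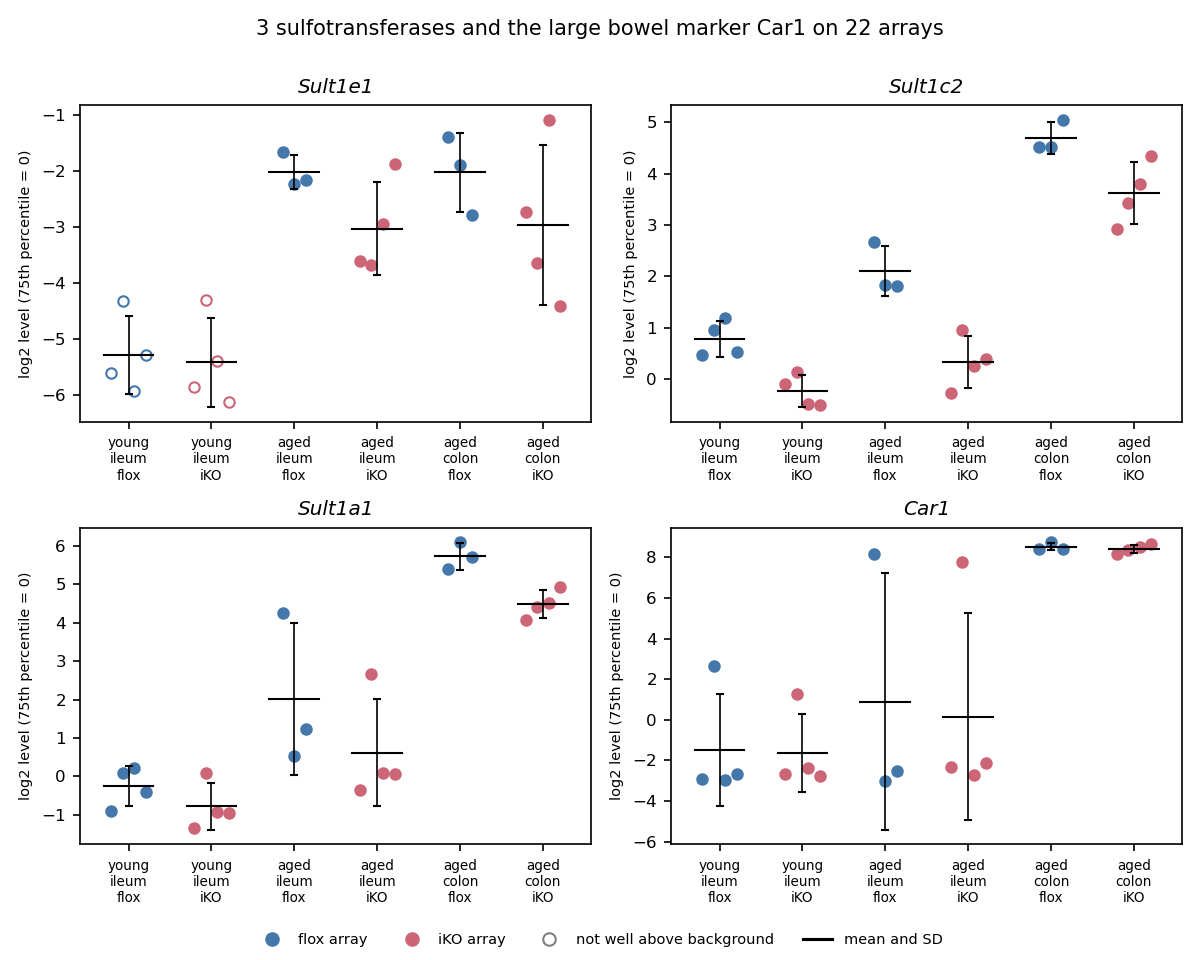
Level of Sult1c2, Sult1e1, Sult1a1 and the colon marker Car1 on each of the 22 arrays by group (log2 relative to the array's 75th percentile; open circles are not well above background; lines give the mean and SD). Sult1c2 is lower on all 12 iKO arrays than on every flox array of its pair, Sult1e1 is above background in aged groups only, and Car1 is near 8 on 2 aged ileum arrays and on all colon arrays.

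Gsta1 and Gsta2, alpha-class transferases that also reduce lipid peroxides, were read by probes that cannot separate them. Gsta1 read 4.03, 4.75, 4.46 and 4.43 in young flox and 4.69, 5.19, 5.27 and 5.10 in young iKO, so that only flox array 2 reached into the iKO range. In aged ileum it read 4.18, 3.27 and 4.21 in flox and 4.50, 5.40, 4.59 and 4.63 in iKO, and in colon 4.15, 3.67 and 3.53 in flox and 4.90, 4.91, 4.77 and 5.10 in iKO. The genotypes did not overlap in either aged tissue, and 11 of 12 iKO arrays lay above every flox array of their pair. The difference was 0.64 ± 0.25 in young ileum, 0.89 ± 0.27 in aged ileum (adjusted p = 0.225; 0.83 ± 0.27 without both arrays with large bowel markers) and 1.14 ± 0.17 in colon (adjusted p = 0.105). Gsta2 gave 0.68 ± 0.26, 0.98 ± 0.28 (adjusted p = 0.208) and 1.08 ± 0.17 (adjusted p = 0.133).

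Gsta4, which conjugates hydroxynonenal, an aldehyde of lipid peroxidation, read 0.87, 0.45 and 0.58 in flox colon and 1.39, 1.60, 1.17 and 1.64 in iKO colon, with every iKO array higher. Its differences were 0.68 ± 0.24 in young ileum, 0.37 ± 0.26 in aged ileum and 0.82 ± 0.16 in colon (adjusted p = 0.999, 0.588 and 0.216), and in aged ileum 0.08 ± 0.27 without both arrays with large bowel markers. Gsta3 differed by 0.64 ± 0.23, 0.09 ± 0.25 and 0.72 ± 0.26, and its second probe by 0.66, 0.15 and 0.70. All 4 alpha members were positive in each pair, with medians of 0.66, 0.63 and 0.95 beside -0.01, 0.02 and -0.01 over all genes.

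The mu-class and Mgst genes had smaller median differences by genotype than the alpha class, whereas Gstt1 differed by a similar amount in aged ileum. The 7 mu-class genes had median differences of 0.03, -0.14 and 0.02 in young ileum, aged ileum and colon, and the 3 Mgst genes 0.05, -0.02 and -0.17. Gstm5 was without overlap in colon (0.35 ± 0.10, adjusted p = 0.452). Gstt1, a theta-class enzyme that acts on halogenated hydrocarbons, read -1.98, -1.51 and -1.74 in aged flox ileum and -2.83, -2.97, -2.46 and -2.69 in aged iKO ileum. Those groups did not overlap, and the difference of -0.996 ± 0.22 missed the threshold (adjusted p = 0.113). Gstp1 (6.84 to 7.43) and Gsto1 (6.22 to 6.64), a pi-class and an omega-class enzyme, stayed within narrow ranges over all 22 arrays.

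The 7 glucuronosyltransferases read above background on all 22 arrays had lower means in iKO in young and in aged ileum, and 6 of 7 in colon, where Ugt2b35 was 0.10 ± 0.10 higher, and none was called. The 5 Ugt2b genes among them, enzymes of steroids and bile acids, had median differences of -0.87, -1.20 and -0.65, each the value of Ugt2b37. Ugt2b34 (-0.09, -0.10 and -0.19) and Ugt2b35 (-0.25, -0.13 and 0.10) differed less, so these medians do not describe all Ugt2b genes. Ugt2a3 was also tested in ileum, through its young flox arrays, and was above background on only 2 of 3 aged flox and 1 of 4 aged iKO arrays. Ugt2b38 read -0.31, -0.06, 1.04 and 0.55 in young flox and -1.17, -1.21, -0.45 and -0.36 in young iKO, without overlap. In aged ileum it read 0.21, 0.37 and 0.17 in flox and -0.95, -0.71, -1.79 and -1.56 in iKO, again without overlap, and in colon 0.43, 1.34 and 1.28 against 0.17, -0.36, -0.06 and 1.27, where only iKO array 4 reached the flox range. Its differences were -1.10 ± 0.31 (adjusted p = 0.718), -1.50 ± 0.34 (adjusted p = 0.125; -1.70 ± 0.40 without both arrays with large bowel markers) and -0.76 ± 0.42.

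Ugt2b5 followed with -1.08 ± 0.35 (adjusted p = 0.974), -1.56 ± 0.38 (adjusted p = 0.151) and -0.66 ± 0.39, and Ugt2b37 with -0.87 ± 0.29, -1.20 ± 0.31 (adjusted p = 0.173) and -0.65 ± 0.39. In aged ileum neither gene's genotypes overlapped: Ugt2b5 read 0.20, 0.26 and 0.36 in flox and -0.94, -0.57, -1.90 and -1.74 in iKO. These 3 probes share target accessions or near-identical genes and are not independent readings. A second Ugt2b37 probe gave -1.09, -1.36 and -0.70. Ugt1a1, the bilirubin enzyme, differed by -0.21 ± 0.15, -0.37 ± 0.17 and -0.89 ± 0.43, none called.

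**Figure D2:**
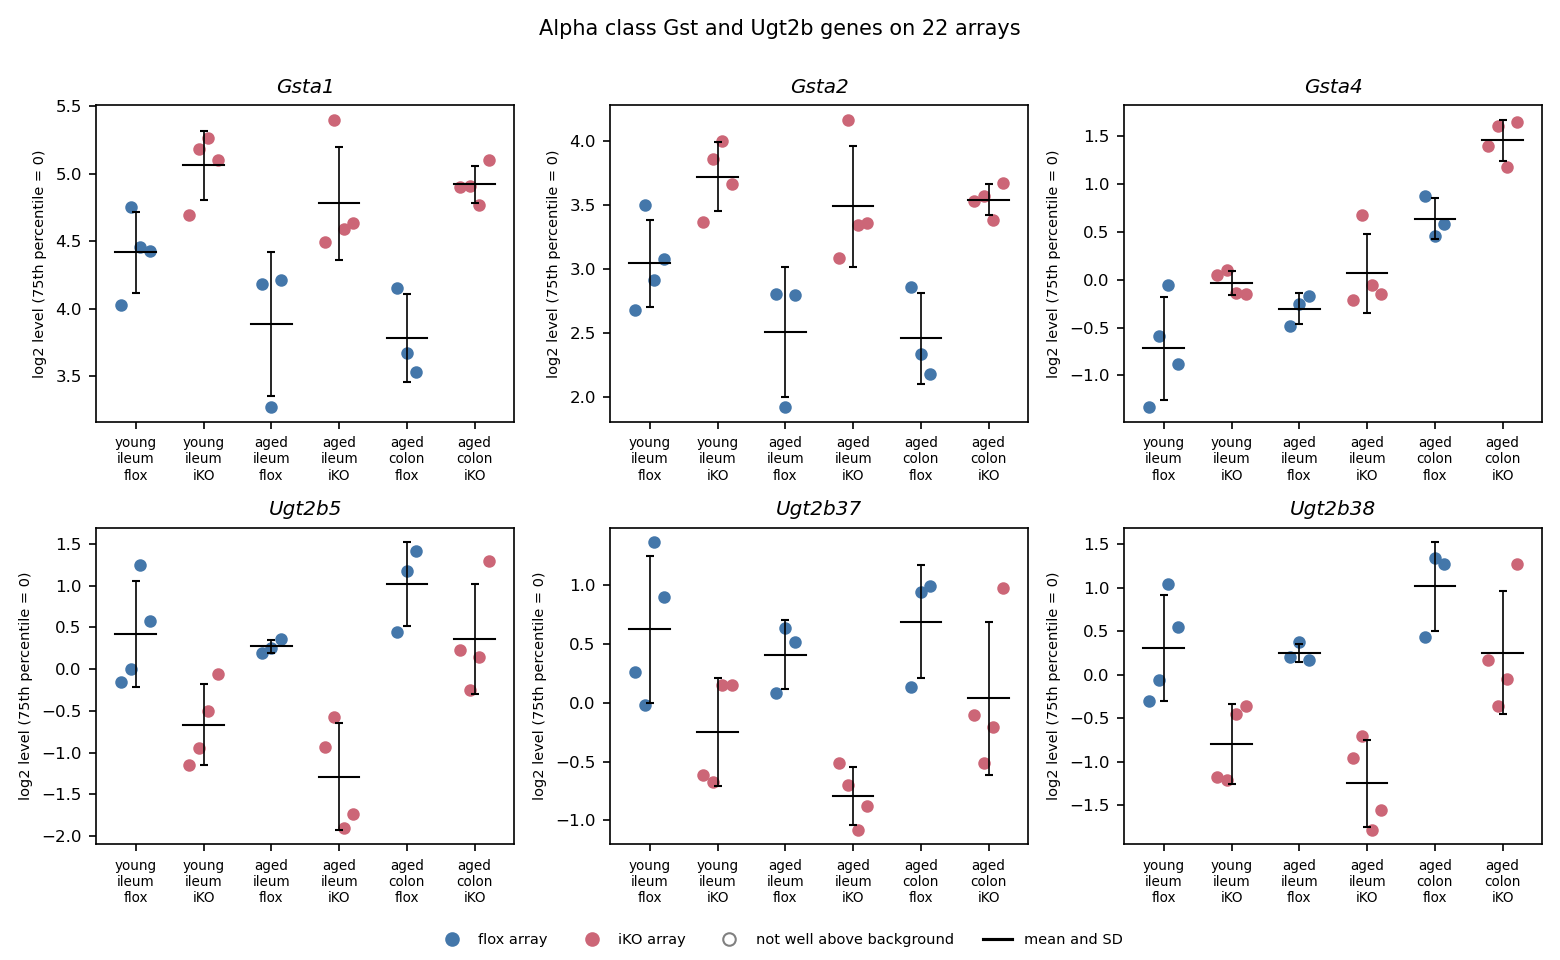
Level of Gsta1, Gsta2, Gsta4, Ugt2b5, Ugt2b37 and Ugt2b38 on each array by group (log2 relative to the array's 75th percentile; lines give the mean and SD). The Gsta genes have higher iKO than flox means and the Ugt2b genes lower ones in young ileum, aged ileum and colon.

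Counted over the list, no member was called in young ileum, where 0.0452% of all genes were called (0.0387% higher, 0.00646% lower), and 9 of 39 had an unadjusted p under 0.05 in limma (4.14% of all genes). In aged ileum 1 of 39 (2.56%) was called, lower, against 0.168% of all genes (0.0517% lower), and 11 had an unadjusted p under 0.05 (11.9% of all genes). In colon none was called, against 0.112% of all genes (0.0919% higher, 0.0204% lower), and 7 had an unadjusted p under 0.05 (7.21% of all genes). Members whose genotypes did not overlap numbered 0 higher and 2 lower in young ileum (0.981% and 1.23% of all genes), 2 higher and 7 lower in aged ileum (8.37% and 5.77%), and 5 higher and 3 lower in colon (4.43% and 3.82%). These counts take Gsta1 and Gsta2, and Ugt2b5, Ugt2b37 and Ugt2b38, as separate members although their probes are not independent readings.

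**Figure D3:**
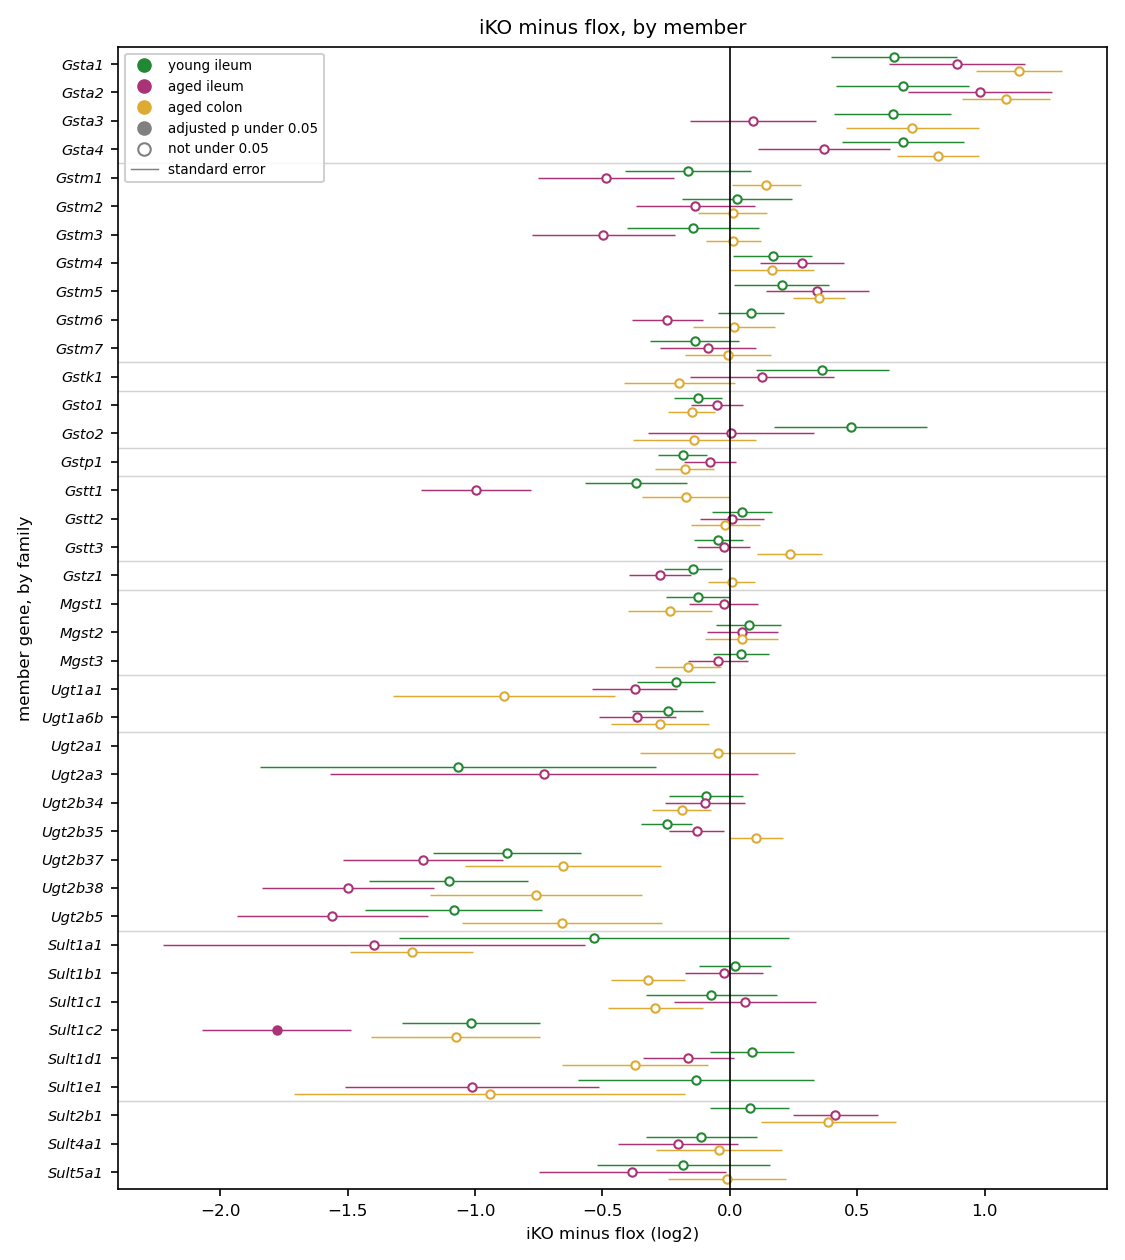
Difference iKO minus flox (log2) for each tested member in young ileum, aged ileum and aged colon, by enzyme family, with the standard error of the limma fit; filled points have an adjusted p under 0.05. Sult1c2 in aged ileum is the only filled point, Gsta1 to Gsta4 lie above 0 and Ugt2b5, Ugt2b37 and Ugt2b38 below 0 in young ileum, aged ileum and aged colon.

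One fit of all 22 arrays, added after seeing the data, averaged the genotype difference over the 3 pairs of groups. Aged ileum and colon arrays may come from the same mice, in which case its p-values are too small. It called 8 of 40 members (20.0%) against 1.78% of all genes, 3 higher (0.895% of all genes) and 5 lower (0.885%). The probes of Gsta1 and Gsta2 are not independent readings, nor are those of Ugt2b5, Ugt2b37 and Ugt2b38. The share of 20.0% therefore overstates how many separate genes differed. Sult1c2 fell by 1.29 ± 0.18 (adjusted p = 0.0007), and Gsta1 rose by 0.89 ± 0.14 (adjusted p = 0.0020) and Gsta2 by 0.91 ± 0.15 (adjusted p = 0.0026). Gsta4 rose by 0.62 ± 0.14 (adjusted p = 0.0231). Ugt2b38 fell by 1.12 ± 0.22 (adjusted p = 0.0119), Ugt2b5 by 1.10 ± 0.23 (0.0165), Ugt2b37 by 0.91 ± 0.20 (0.0255) and Gstt1 by 0.51 ± 0.12 (0.0318). Sult1a1 (-1.06 ± 0.41, adjusted p = 0.233), Gsta3 (0.48 ± 0.15, adjusted p = 0.126) and Ugt1a1 (-0.49 ± 0.17, adjusted p = 0.180) missed the threshold, and no average is given for Sult1e1, which was below background in young ileum.

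Both genotypes of a pair could be compared within a slide 8 times, on 7 slides, 1 slide serving both young and aged ileum. Sult1c2 was lower in iKO in 8 of 8 such comparisons (-1.68 to -0.18), Gsta1 higher in 7 of 8 (-0.06 to 2.13) and Ugt2b38 lower in 7 of 8 (-1.70 to 0.84). The only comparison in aged ileum used iKO array 2, which carried large bowel markers, and it gave the Gsta1 value of 2.13. With the slide as a fixed factor Sult1c2, Gsta1, Gsta2 and Gsta4 kept their calls, whereas Ugt2b38 (-0.99, adjusted p = 0.142), Ugt2b5 (-0.92, adjusted p = 0.181), Ugt2b37 (-0.83, adjusted p = 0.203) and Gstt1 (-0.47, adjusted p = 0.220) lost them. Without both arrays with large bowel markers 8 members were called, with Gsta4 lost (0.52 ± 0.13, adjusted p = 0.0509), Sult1a1 gained and Sult1c2 at -1.26 ± 0.17 (adjusted p = 0.0010). Leaving out colon flox array 3 or colon flox array 4 left 5 calls each, without Gsta4, Gstt1 and Ugt2b37. Ugt2b37 was also lost without aged ileum flox array 3 or 4 (adjusted p up to 0.0611). The Gstt1 call was lost in 11 of the 22 fits with 1 array left out (adjusted p up to 0.0766): without young iKO array 3 or 4, aged ileum flox 3 or 4, aged ileum iKO 1, 2 or 4, colon flox 3 or 4, or colon iKO 1 or 3.

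Markers of other cells differed in mean level between genotypes, and none was called within a pair of groups. The 4 fat markers tested were lower in iKO in young ileum (median -2.38; summed level 13.4 to 98.3 in flox and 4.97 to 131 in iKO) and in aged ileum (median -1.09). In aged iKO ileum all 6 fibroblast, all 6 smooth muscle and all 4 endothelial markers were also lower (medians -0.45, -0.22 and -0.18), and in iKO colon 6 of 7 colon markers (median -0.23). That median does not describe Hoxd10 and Hoxd11. In flox and iKO colon Hoxd10 averaged -1.05 ± 0.13 and -2.27 ± 0.40, and Hoxd11 -3.23 ± 0.15 and -4.44 ± 0.69. Car1 averaged 8.53 ± 0.18 and 8.42 ± 0.20 there. Of 5 leukocyte markers tested in ileum 4 were higher in iKO at either age (medians 0.55 and 0.45). The averaged fit called 2 of the 63 markers listed, not all of which were tested, beside 1.78% of all genes. Itgam, an integrin of myeloid cells, rose by 0.57 ± 0.12 (adjusted p = 0.0228) and the colon marker Car4 by 0.96 ± 0.22 (adjusted p = 0.0285). The macrophage marker Csf1r (-0.07) and the T cell marker Cd3e (-0.20) were not called. The 9 markers of gut epithelium had median differences of 0.02, 0.03 and -0.01 in the 3 pairs. The part of these cells' RNA in the member differences was not tested.

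Of the genes that supply or clear the substrates of these enzymes, none of 58 tested was called by genotype in young or aged ileum and none of 60 in colon. The smallest p-values in aged ileum belonged to Chac1, which degrades glutathione (2.41 ± 0.55, adjusted p = 0.127), and Slc35b3, a Golgi carrier of PAPS (0.39 ± 0.09, adjusted p = 0.132). In young ileum they belonged to Mafg, a partner of NRF2 (-0.27 ± 0.11), and the peroxidase Gpx1 (-0.22 ± 0.10), and in colon to Bpnt2, a phosphatase of the PAPS by-product (0.40 ± 0.10, adjusted p = 0.362), and Oplah, which recycles oxoproline from glutathione (-0.40 ± 0.11, adjusted p = 0.405). The averaged fit called 1 of 60 (1.67%), near the 1.78% of all genes: Oplah, which fell by 0.58 ± 0.11 (adjusted p = 0.0101).

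The second question is how these genes differed between young and aged ileum. Sult1e1, Gstm6 and Ugt1a1 rose with age in both genotypes, Sult1c2 rose in flox, and the phenol sulfotransferase Sult1b1 fell in iKO. The flox comparison uses the same young and aged flox arrays as the genotype comparisons, and likewise for iKO. In flox 4 of 39 members (10.3%) were called, all higher, against 8.54% of all genes (3.18% higher, 5.37% lower), and in iKO 4 of 39 (10.3%), 3 higher and 1 lower, against 10.7% (5.16% and 5.58%). Sult1e1 counts among the 4 in each although it entered the test only through its aged arrays.

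Sult1e1 read -5.61, -4.32, -5.93 and -5.28 in young flox and -5.85, -4.31, -5.38 and -6.13 in young iKO, not well above background on any of these arrays. All 7 aged ileum arrays were above background, at -2.23 to -1.66 in flox and -3.68 to -1.88 in iKO, and lay above every young array. The aged level was at least 5.24-fold higher in flox and at least 2.53-fold higher in iKO, against the lowest signals that counted as above background (adjusted p = 0.0025 and 0.0083, and 0.0191 and 0.0159 without both arrays with large bowel markers). These p-values rest on young values below background, and Sult1e1 entered the test only through its aged arrays. They are therefore no measure of the size of the difference and add no support to it. The difference rests on the levels themselves.

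Gstm6, a mu-class transferase, read -3.46, -3.38, -2.92 and -3.07 in young flox and -2.28, -2.23 and -2.39 in aged flox, without overlap. In iKO it read -3.12, -2.99, -3.12 and -3.26 when young and -2.62, -2.24, -2.66 and -2.67 when aged, the highest being array 2 with large bowel markers. It rose by 0.91 ± 0.14 in flox (adjusted p = 0.0026, 1.87-fold) and by 0.58 ± 0.13 in iKO (adjusted p = 0.0161), the latter 0.47 ± 0.13 (adjusted p = 0.0484) without both such arrays. Ugt1a1 read -1.90, -1.29, -1.27 and -1.23 in young flox and -0.84, -0.36 and -0.77 in aged flox, and -1.62, -1.87, -1.53 and -1.53 against -0.88, -1.14, -1.06 and -1.05 in iKO. Every aged array was above every young one. Ugt1a1 rose by 0.77 ± 0.17 in flox (adjusted p = 0.0170, 1.70-fold) and by 0.60 ± 0.15 in iKO (adjusted p = 0.0270). The flox call was lost without aged flox array 3 (0.62, adjusted p = 0.0576), and the iKO call without young iKO array 2 or 3 or aged iKO array 1, 3 or 4 (adjusted p from 0.0553 to 0.0770).

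Sult1c2 rose with age in flox by 1.33 ± 0.29 (adjusted p = 0.0184, 2.51-fold), with all 3 aged arrays above all 4 young ones. The difference was 1.04 without both arrays with large bowel markers (adjusted p = 0.0476), and the call was lost without aged flox array 1 alone (1.04, adjusted p = 0.0768) or without young flox array 4 (adjusted p = 0.0540). In iKO the difference was 0.56 ± 0.27 (adjusted p = 0.195), with overlap. Sult1b1 read 5.53, 5.35, 5.81 and 5.41 in young iKO and 5.03, 4.93, 5.02 and 5.09 in aged iKO. It fell by 0.51 ± 0.14 (adjusted p = 0.0381), and by 0.64 on its second probe, but not past the threshold without both arrays with large bowel markers (-0.48, adjusted p = 0.0845), without young iKO array 1 or 3 or any 1 aged iKO array (adjusted p from 0.0582 to 0.118), with quantile scaling (-0.36, adjusted p = 0.0940) or with no filter (adjusted p = 0.0982). Its flox difference was of similar size at -0.47 ± 0.15 (adjusted p = 0.0740).

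Short of the threshold in flox were Ugt1a6b, whose probe lies in the part shared by all Ugt1a transcripts (0.51 ± 0.15, adjusted p = 0.0529), Gstt1 (0.71 ± 0.22, adjusted p = 0.0564), Sult2b1, which sulfates cholesterol (-0.53 ± 0.17, adjusted p = 0.0682), and Sult1a1 (2.26 ± 0.83, adjusted p = 0.103; 1.13 ± 0.40 without both arrays with large bowel markers). The 3 Mgst genes were lower with age in flox (-0.32 to -0.25) and iKO (-0.34 to -0.22), and Mgst3 passed the threshold in iKO only without both arrays with large bowel markers (-0.43 ± 0.11, adjusted p = 0.0417; -0.34 ± 0.11, adjusted p = 0.0654 with them). Aged and young arrays did not overlap for 7 members higher and 2 lower in flox (9.21% and 15.4% of all genes) and for 4 higher and 2 lower in iKO (8.26% and 10.5%). No member was called for a genotype by age interaction in limma, against 0.0% of all genes, and 0 members had an unadjusted p under 0.05 (2.52% of all genes). The interaction was -0.76 ± 0.40 for Sult1c2 and -0.63 ± 0.29 for Gstt1.

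**Figure D4:**
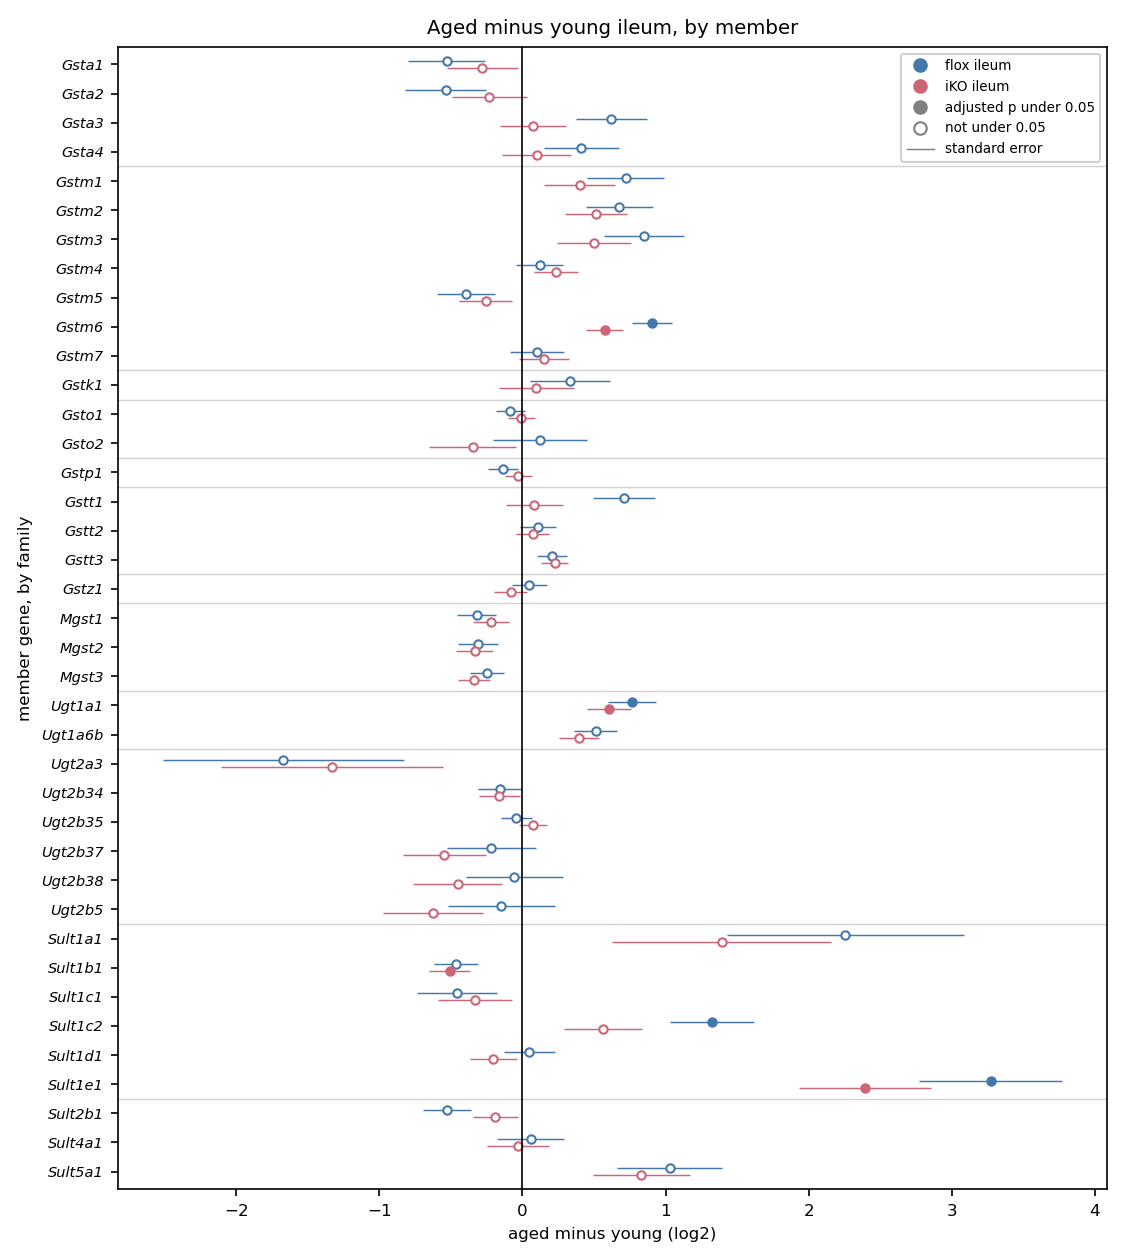
Difference aged minus young ileum (log2) for each tested member in flox and in iKO, with the standard error of the limma fit; filled points have an adjusted p under 0.05. Gstm6 and Ugt1a1 are filled and above 0 in both genotypes, Sult1c2 is filled in flox only, and the point of Sult1e1 is a fitted value against young arrays below background.

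The supply and regulator genes called with age were all lower. In flox they were 4 of 58 (6.90%), beside 8.54% of all genes called in either direction and 5.37% called lower. In iKO they were 5 of 58 (8.62%), beside 10.7% in either direction and 5.58% lower. Nr1i2, which encodes the xenobiotic receptor PXR, fell by 1.499 ± 0.14 in flox (adjusted p = 2.53e-05) and by 1.57 ± 0.13 in iKO (adjusted p = 8.04e-06). Its levels were 3.32 to 3.71 on the 8 young arrays and 1.70 to 2.27 on the 7 aged ones, far apart. Gsr, glutathione reductase, fell by 0.98 ± 0.19 in flox (adjusted p = 0.0102). Bpnt2 fell by 0.45 ± 0.10 and 0.40 ± 0.10 and Hagh, a glutathione thioesterase, by 0.44 ± 0.12 and 0.49 ± 0.11, both called in either genotype. The peroxidases Gpx7 and Gpx8 fell in iKO by 0.46 ± 0.13 and 0.55 ± 0.16. Without both arrays with large bowel markers Nr1i2 kept its call in both genotypes and Gsr in flox, while the flox calls of Bpnt2 and Hagh and the iKO calls of Gpx7 and Gpx8 were lost (adjusted p = 0.0897, 0.166, 0.0526 and 0.114). Of 9 epithelial markers 8 were lower with age in each genotype (medians -0.24 and -0.26, with 2 and 3 called), and ileal Slc10a2 fell by 0.82 and 0.80. The epithelial Cdx2 was far from these medians, averaging 5.64 in young and 4.10 in aged flox, and 5.51 and 4.10 in iKO. In flox the endothelial Kdr and Pecam1 and the pancreatic Cela1 rose by 0.59, 0.94 and 2.30. Cela1 was also high in colon, averaging 3.51 in aged flox colon against -0.28 in aged flox ileum. In iKO Cela1, the macrophage marker Csf1r and Kit, listed as a mast cell marker, rose by 2.24, 0.77 and 0.50. The fibroblast markers Col1a1 and Col3a1 fell there by 0.91 and 1.24. The named markers do not stand for their whole lists. In young and aged iKO ileum the myeloid Itgam averaged -1.04 and -1.36, and the fibroblast markers Pdgfra -0.70 and -0.54 and Dcn 5.25 and 5.21. The pancreatic Pnlip was above background on no ileum array. The part of these cells' RNA in the member differences was not tested.

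The last question is how the aged colon differed from the aged ileum. Every mu-class transferase measured, the kappa-class Gstk1, Gsta4, Ugt1a6b, Sult1c2 and Sult1a1 were higher in colon in both genotypes, while Sult2b1 and Mgst1 were lower. These comparisons use the same aged arrays as the genotype comparisons, and tissue cannot be told apart from slide. Ileum and colon may come from the same mice, which the main fits do not take into account. In flox 17 of 39 members (43.6%) were called, 14 higher and 3 lower, against 32.9% of all genes (19.1% higher, 13.7% lower). In iKO 23 of 39 (59.0%) were called, 20 higher and 3 lower, against 43.6% of all genes (24.2% and 19.4%). By family, 11 of 19 Gst, 2 of 3 Mgst, 1 of 8 Ugt and 3 of 9 Sult genes were called in flox, and 12, 2, 5 and 4 in iKO.

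Sult1a1 rose most, from -0.36 to 4.26 on aged ileum arrays to 4.07 to 6.10 on colon arrays. The ileum values above 2 came from the arrays with large bowel markers. The difference was 3.72 ± 0.90 in flox (adjusted p = 0.0079, 13.2-fold) and 3.87 ± 0.78 in iKO (adjusted p = 0.0018, 14.6-fold), and 4.85 ± 0.30 and 4.56 without both such arrays. Sult1c2 was higher in colon by 2.59 ± 0.38 in flox (adjusted p = 0.0004, 6.01-fold) and 3.29 ± 0.33 in iKO (adjusted p = 1.36e-05, 9.78-fold), with no overlap. Sult1e1 did not pass the threshold between tissues (-0.01 ± 0.73, adjusted p = 0.995 in flox, and 0.06 ± 0.63, adjusted p = 0.948 in iKO), and its wide standard errors reflect the spread of the colon arrays from -4.40 to -1.08. Sult2b1 read 1.86 to 2.86 in aged ileum and -0.43 to 0.71 in colon, and was lower by -2.19 ± 0.25 in flox (adjusted p = 8.51e-05, 4.55-fold) and -2.21 ± 0.22 in iKO (adjusted p = 1.33e-05).

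All 7 mu-class genes were called higher in colon in both genotypes, with medians of 1.29 in flox and 1.43 in iKO. Gstm6 read -0.43, -0.32 and -0.61 in flox colon and -0.31, -0.13, -0.68 and -0.62 in iKO colon, against -2.67 to -2.23 in aged ileum, a gap with no array inside it. It differed by 1.85 ± 0.16 (adjusted p = 1.12e-05) and 2.11 ± 0.14 (adjusted p = 6.32e-07). Gstm1 read 6.32 to 6.84 in colon and 4.19 to 5.56 in aged ileum, and differed by 1.46 ± 0.26 (adjusted p = 0.0015) and 2.09 ± 0.23 (adjusted p = 2.61e-05). Gstm3 differed by 1.57 and 2.08, Gstm2 by 1.29 and 1.43, Gstm4 by 1.22 and 1.10, Gstm7 by 1.06 and 1.14 and Gstm5 by 0.89 and 0.90, in flox and iKO. Gstk1, found in mitochondria and peroxisomes, was higher by 1.59 and 1.26, and Gsto2, an omega-class enzyme, by 1.31 and 1.17. Gsta4 was higher by 0.94 ± 0.22 (adjusted p = 0.0069) and 1.39 ± 0.19 (adjusted p = 0.0001), whereas Gsta1, Gsta2 and Gsta3 were not called in either genotype.

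In iKO the colon was also called higher for Ugt2b5 (1.64 ± 0.36, adjusted p = 0.0032), Ugt2b38 (1.51 ± 0.35, adjusted p = 0.0044), Ugt2b37 (0.83, adjusted p = 0.0415) and Gstt1 (1.17 ± 0.16, adjusted p = 0.0001). In flox these differed by 0.74, 0.77, 0.28 and 0.35, not called. The genotype by tissue interaction was called for no member, against 0.0356% of all genes, and 2 members had an unadjusted p under 0.05 (5.99% of all genes), Gstt1 (0.82 ± 0.24, adjusted p = 0.621) and Gstz1 (0.28). It was 0.70 ± 0.50 for Sult1c2 (adjusted p = 0.844) and 0.07 ± 0.96 for Sult1e1. Mgst1, a transferase of the endoplasmic reticulum and mitochondria, was lower in colon by -0.74 ± 0.15 and -0.95 ± 0.13. Sult1b1 was called lower in iKO by -0.45 ± 0.13 (adjusted p = 0.0150), but its second probe gave -0.07. Ugt2a3, a glucuronosyltransferase of bile acids, was above background on 2 of 3 aged flox ileum arrays (-3.00 and -3.27) and on no colon array, at least 5.60-fold lower in flox colon and not tested.

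**Figure D5:**
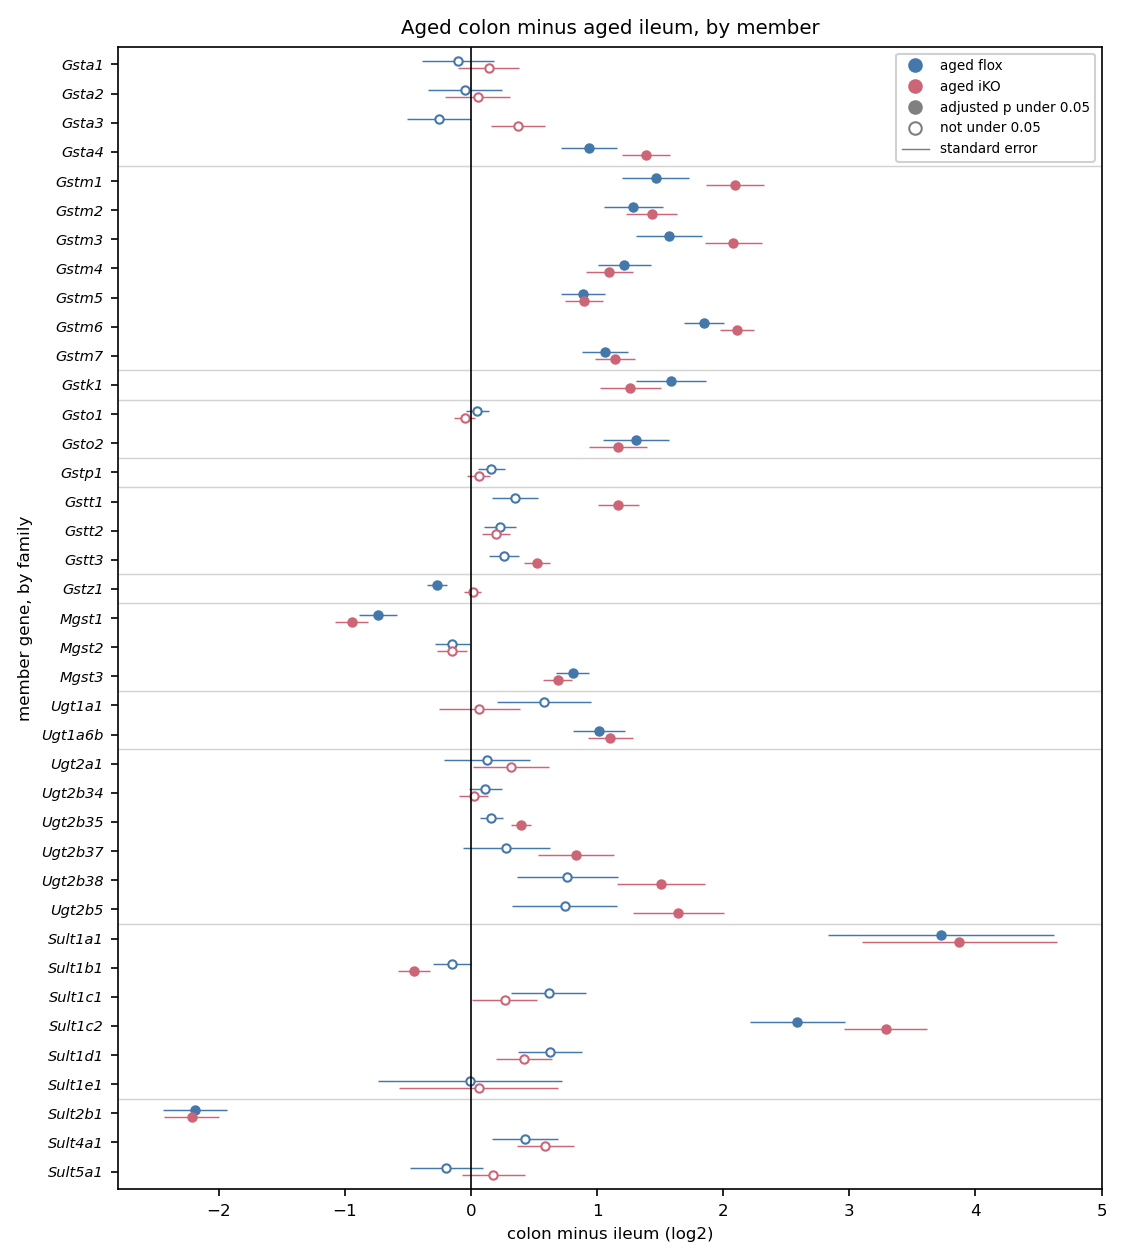
Difference aged colon minus aged ileum (log2) for each tested member in flox and in iKO, by enzyme family, with the standard error of the limma fit; filled points have an adjusted p under 0.05. All 7 Gstm genes, Sult1a1 and Sult1c2 are filled and above 0 and Sult2b1 and Mgst1 filled and below 0 in both genotypes.

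The groups of colon and ileum did not overlap for 19 members higher and 3 lower in flox (27.4% and 18.1% of all genes) and for the like numbers, 19 and 3, in iKO (23.3% and 19.8%). Without both arrays with large bowel markers all 17 flox calls were kept, and 22 of the 23 iKO calls, Ugt2b37 being lost. Among the supply, efflux and regulator genes 30 of 60 were called in flox (14 higher, 16 lower, beside 32.9% of all genes) and 35 of 60 in iKO (58.3% beside 43.6%; 16 higher, 19 lower). All 6 efflux pumps were called in both genotypes, 4 higher and 2 lower. Ggt1, which cleaves glutathione outside the cell, was lower in colon by -5.22 ± 0.46 in flox (adjusted p = 1.29e-05) and -6.71 ± 0.40 in iKO (adjusted p = 3.17e-07). Abcg2, a pump for sulfate conjugates, was lower by -1.41 and -1.77, and Gsr by -0.79 and -1.38. The AHR target Cyp1b1 was lower by -3.13 and -3.06, the NRF2 target Srxn1 by -1.11 and -1.25, and Nr1h4, the bile acid receptor FXR, by -1.23 and -1.32. These genes, from Ggt1 on, were named for their small p-values. Of the other NRF2 targets listed, Nqo1 and Hmox1 had higher and Txnrd1 lower means in colon in both genotypes. In flox, aged ileum and colon averaged 1.21 and 2.01 for Nqo1, -0.91 and -0.78 for Hmox1, and 4.67 and 4.45 for Txnrd1.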

How the data were processed

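Total RNA (TRIzol, Qiagen clean-up with DNase) was labelled with Cy3 and hybridised to Agilent Whole Mouse Genome arrays, per the labels' protocols. The deposited intensity values (processed signal) were background-subtracted and detrended within each array by Agilent Feature Extraction 9.5, per the file headers and the submitters' processing notes, with no scaling between arrays. The authors' series table held the same values (largest relative difference 0). Here log2 of the processed signal minus each array's 75th percentile was used, control spots were left out, and each gene was read from its brightest probe. Probes were named with RefSeq GRCm38.p6: 22951 by accession, 6659 by symbol and 3109 by synonym, while 8455 kept the file's name. The promoter table held 39 of the 44 members.

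Group means were fitted with limma 3.58.1 (R 4.3.3) on the 15 ileum, the 7 colon and the 14 aged arrays, with empirical Bayes variances and Benjamini-Hochberg adjustment over all genes tested. Values after ± are SD for levels and SE for differences. The number of arrays limits the precision. Nothing says whether samples of a group came from separate mice, so p-values measure the spread between these samples, which may be technical. The fit was tested on simulated data. Named genes were Sult1e1, Sult1c2, the called members (with the smallest p-values where fewer than 5 were called), the 12 largest called differences each way for tissue, and at most 6 supply genes a comparison; other members were named by role after their values were seen. The members and lists were chosen with earlier results of these data known.

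Alternatives were quantile scaling, normexp background correction (offset 50), 2 other filters on dim probes, the mean of a gene's probes, file gene names, only the groups compared, slide, position and replicate terms, a trended robust variance, and leaving out each array. The deviations of same-numbered arrays from their group means had correlations of -0.22 to 0.30 over 51 pairs, 13 over 0.1. They were not set against differently numbered arrays, so they cannot show whether equal numbers mark the same mouse. The aged flox arrays are numbered 1, 3 and 4 in both ileum and colon. Outside the replicate term, the numbers were not treated as pairing.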

Additional observations from a re-analysis of the deposited data

Results flagged for a closer look

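For the 28 members named by the rule, 112 groups of 4 arrays were examined (4 groups each), of which 8 had 1 array far from the other 3 by Dixon's test, which chance alone gives in about 1 group in 20. Aged ileum iKO array 2, which carried large bowel markers, stood apart for Sult1a1 at 2.68 (the others -0.36 to 0.07), for Gsta1 at 5.40 (4.50 to 4.63) and for Gstm6 at -2.24 (-2.67 to -2.62). Young flox array 1 was low for Ugt1a1 at -1.90 (-1.29 to -1.23) and for Ugt1a6b at 4.82 (5.21 to 5.25). Young flox array 2 was low for Sult2b1 at 2.69 (2.77 to 2.78). Young iKO array 3 was high for Mgst1 at 5.73 (5.23 to 5.31), and colon iKO array 3 for Sult1b1 at 4.79 (both ends of the others at 4.49).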

How the results depend on the processing

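The count of members called by genotype in aged ileum, 1, became 0 with no filter on dim probes, with only the groups compared, with slide as a fixed factor and with a position term, and lay between 0 and 2 with 1 array left out (2 without young flox array 3). In colon the count of 0 became 1 with normexp (Gsta1, 1.16, adjusted p = 0.0402) and 2 with a trended robust variance (Gsta1 and Gsta2), and stayed 0 with each array left out. With age the count of 4 became 2 in either genotype with no filter, and ranged from 3 to 6 in flox and from 2 to 5 in iKO with 1 array left out. The replicate block gave 8 for flox age, adding Gsta3, Gstm2, Sult1b1 and Ugt1a6b, and changed no other count by over 1.5 times (16 and 23 for tissue, 4 for iKO age). The averaged genotype count of 8 became 4 with slide as a fixed factor and ranged from 5 to 9 with 1 array left out, with Sult1c2, Gsta1 and Gsta2 called in each setting. Tissue counts ranged from 16 to 18 in flox and from 22 to 24 in iKO with 1 array left out. The direction reversed only for Sult1e1 between tissues, called in no setting: in flox 0.17 without both arrays with large bowel markers and -0.32 to 0.37 with 1 array left out, in iKO -0.011 with quantile scaling, -0.020 with normexp, -0.16 without both arrays and -0.57 to 0.54 with 1 left out, and for the genotype by tissue interaction -0.016 with normexp, -0.33 without both arrays and -0.56 to 0.55. The cause of these changes was not tested. Signal over background limits Sult1e1, Ugt2a3, Ugt2a1, Sult5a1 and Sult2a2 most, since some of their arrays give only a bound.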
